A study of Drosophila melanogaster and Drosophila simulans and Drosophila sechellia with 48 samples.

Results

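Early pupal males of Drosophila melanogaster were set against early pupal males of D. simulans and of D. sechellia, a pair of species that are closer to each other by descent than either is to D. melanogaster. The 9 arrays were those of the 48 in the series whose titles name early pupal males of a pure species, 3 per species, and the genes were the 1893 measured in all 3 species (2830 of the 13824 elements on the array were measured in all 3). The question was which genes differed in the same direction from both D. simulans and D. sechellia, that is, where D. melanogaster stood apart from the pair. The D. melanogaster strain was 14021-0231.00, the D. simulans strain 14021-0251.2 and the D. sechellia strain came from Cousin Island. Whole bodies were used, 25 males to a pool, collected 4 h after the puparium formed by the sample labels and 2 h by the study's methods, and both sources name the stage early pupal. The series also holds larvae (96 h after hatching), late pupae (72 h after puparium formation) and adults (1.5 h after eclosion) of the same strains, and at each stage the male F1 hybrids of D. simulans mothers and D. sechellia fathers. The 3 arrays of a pure species at a stage were technical arrays of 1 RNA pool, whereas the hybrids had 3 pools by the study's methods. Each species at each stage is thus represented by 1 pool of 1 strain. D. melanogaster cDNA was spotted on the arrays, and every sample, after 2 amplifications, was hybridised beside an unamplified reference of D. melanogaster males of the 4 stages mixed. Values are log2 ratios, sample over reference, so 0 means the level of the reference and a difference of 1 between species is a 2-fold change. Because the spotted cDNA and the reference were both D. melanogaster, a lower transcript level in D. simulans or D. sechellia and a weaker binding of their cDNA to a D. melanogaster spot cannot be told apart in these values.

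Puparium formation is set off by a pulse of the steroid hormone ecdysone at the end of larval life. The hormone's receptor switches on a cascade of early regulators and then late genes, the larval cuticle hardens into the puparium, the salivary glands expel glue, and the fat body, gut and salivary glands of the larva begin to be remodelled or broken down, partly through autophagy and the proteasome. Adult tissues grow from imaginal discs, and in males the testis already holds spermatocytes. In whole bodies, fewer cells of a type and less RNA per cell cannot be told apart.

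The early pupal arrays were centred and of like spread. Their medians over all spots lay between 0.022 and 0.078, and the SD over genes was 0.963 to 0.978 in D. melanogaster, 0.931 to 1.05 in D. simulans and 1.07 to 1.09 in D. sechellia. In D. melanogaster, replicates 1 and 2 were near-identical: the difference between duplicate spots correlated at 0.97 between these 2 arrays and the arrays differed by an SD of 0.0346, and replicates 1 and 3 of D. sechellia were alike in the same way (0.953 and 0.0589). Among the hybrids, adult replicates 1 and 2 were alike to a lesser degree (0.607 and 0.152), although the study's methods give them separate pools. They too were merged. Over the pairs of arrays of 1 group that were not alike, the correlation was between -0.0339 and 0.0365 and the SD between 0.297 and 0.699. The near-identical pairs were therefore counted as 1 array in every fitted value, although all 3 arrays are printed for each gene, and such a pair carries no more weight than 1 array. Eig71Ed and Blimp-1 had been taken as markers of early pupae. Eig71Ed, a late gene of the ecdysone cascade that is active in prepupal salivary glands, peaked there in all 3 species. Its mean log2 ratio was 1.68, 0.59 and 0.87 in early pupae of D. melanogaster, D. simulans and D. sechellia. The highest mean at any other stage of the 3 was -3.17. Blimp-1 did not peak there: its early pupal means were 0.53, 1.51 and 3.06, below larval means of 1.84, 2.95 and 3.55.

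Tests used a limma model over 23 units (hybrid pools, and the averaged arrays of each pure species and stage) in 16 groups, so hybrid pools supplied the spread between pools for the pure species too. Calls needed a p under 0.05 after Benjamini-Hochberg adjustment over all 1893 genes and a difference of at least 1.5-fold (0.58 log2). Over all genes the median absolute difference of D. melanogaster was 0.303 from D. simulans and 0.424 from D. sechellia. Between D. simulans and D. sechellia it was 0.347, so the mean of these species joins 2 that also differed from each other. The study reports that early pupal D. melanogaster and D. simulans clustered together, with the fewest genes differing significantly. Against the mean of D. simulans and D. sechellia, 2 genes were called higher in D. melanogaster (0.106% of the genes tested) and 1 was called lower (0.0528%). That count moved with which hybrid pools were in the fit: without the hybrid larval replicate 1 it was 24 higher and 13 lower, and without the hybrid larval replicate 2 it was 3 and 2. Hybrid larval replicate 1 differed from replicates 2 and 3 by SDs of 0.699 and 0.677, the highest within any group. Replicates 2 and 3 differed from each other by 0.375. Against D. sechellia alone, 7 were called higher (0.37%) and 6 lower (0.317%), and 237 genes had an unadjusted p under 0.05. With arrays scaled to the same SD, 0 were called higher and 2 lower (CG17834 and Rpn12), and with arrays centred on their median 3 and 4. Leaving out 1 replicate gave between 3 genes in all (without the hybrid early pupal replicate 2) and 47 (without the hybrid larval replicate 1) against D. sechellia. Against D. simulans alone, limma called 0 genes higher (0%) and 0 lower (0%), with 128 genes at an unadjusted p under 0.05 and 406 genes called by SAM, the test of the study's methods, which takes the 6 spots of a group as replicates. Accordingly 0 genes were called the same way against both species (0% higher and 0% lower), where 38 genes higher and 29 lower had an unadjusted p under 0.05 against each, and SAM called 220. SAM's counts rest on the spread between spots and arrays of 1 pool, which leaves out the spread between pools. With only the early pupal groups in the fit, limma called 11 genes the same way against both, all of them higher, and without the hybrid larval replicate 1 it called 5 (CG14891, CG1910, CG2233, CG32588 and Smox).

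CG2233, known by its CG number alone, was called higher in D. melanogaster than the mean of the other species. Its log2 ratios were 1.07, 1.08 and 0.84 on the D. melanogaster arrays, against -1.53, -1.79 and -1.15 in D. simulans and -1.72, -1.74 and -1.72 in D. sechellia. The lowest D. melanogaster array stood above all 6 arrays of the other species, and the fitted difference was 2.57 (SE 0.41, limma adjusted p = 0.00777). The difference was 2.45 from D. simulans (adjusted p = 0.141) and 2.68 from D. sechellia (adjusted p = 0.0167), so it was called against D. sechellia but not against D. simulans. With arrays scaled to the same SD the call against D. sechellia was lost (adjusted p = 0.0651). At the other stages the same difference was 2.12 in larvae, 1.96 in late pupae and 1.07 in adults, and it was called in larvae and late pupae (adjusted p = 0.0493 and 0.0361). The hybrid pools had -0.55, -0.52 and -0.61 in early pupae, between D. melanogaster and both parents.

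CG32588, on the X chromosome, was the other gene called higher. It read 1.72, 1.75 and 1.18 on the D. melanogaster arrays, against -1.18, -0.41 and -1.05 in D. simulans and -0.80, -1.36 and -0.88 in D. sechellia. The D. melanogaster arrays lay above all others, with a difference of 2.45 (SE 0.37, limma adjusted p = 0.0319). It was not measured in the hybrids, so its error is the model's prior alone, as it is for all 204 genes without hybrid values. The call was lost without D. sechellia replicate 2 (adjusted p = 0.0506) and without the hybrid adult replicate 3 (0.0542), while the difference was then 2.32 and 2.45. At the other stages its difference was 1.57 in larvae, 2.02 in late pupae and 1.12 in adults.

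CG17834 was the gene called lower. Its log2 ratios were -0.05, -0.06 and -0.37 on the D. melanogaster arrays, against 0.88, 1.38 and 0.94 in D. simulans and 2.10, 2.44 and 2.11 in D. sechellia. All 3 D. melanogaster arrays lay below every other array, and the difference was -1.89 (SE 0.30, limma adjusted p = 0.00777). Against D. sechellia it was -2.49 (adjusted p = 0.00264) and against D. simulans -1.28 (adjusted p = 0.247). Mean log2 ratios in larvae were -0.85 in D. melanogaster, -0.46 in D. simulans and -0.43 in D. sechellia, whereas in early pupae they were -0.21, 1.07 and 2.27, so the species were close before puparium formation and far apart after it. The hybrid pools had 1.71, 1.87 and 1.93 in early pupae, between the parents and above D. melanogaster. The difference between the species was -0.41 in larvae, -0.96 in late pupae and -0.39 in adults, and the test of early pupae against the mean of those 3 stages gave -1.30 (SE 0.35, limma adjusted p = 0.727). Over all genes that test called 0 (0%), with 70 at an unadjusted p under 0.05 and 283 called when every array was taken as a replicate, so no early pupal difference was shown by limma to depart from the other stages.

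**Figure D1:**
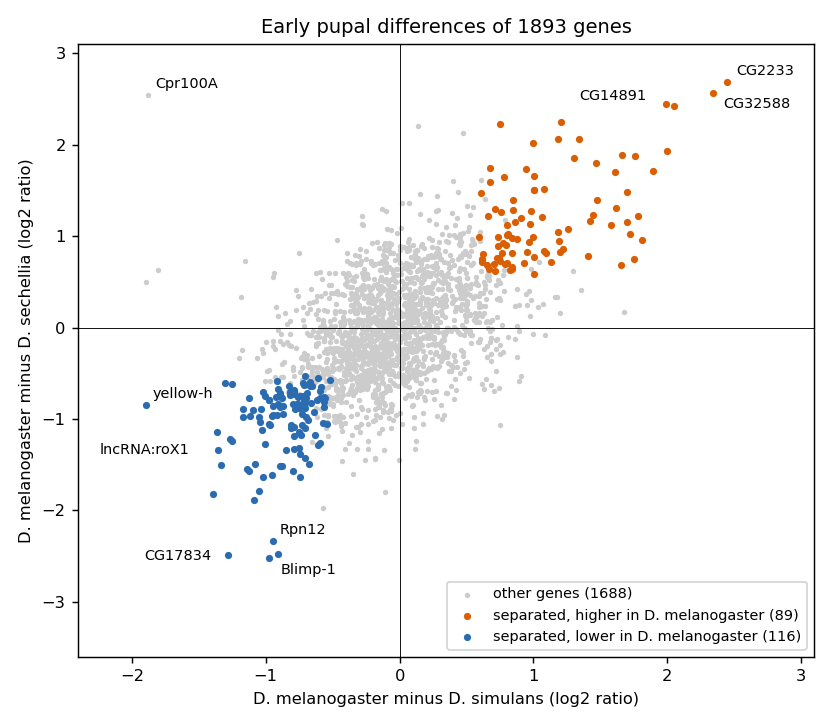
Difference in log2 ratio of D. melanogaster from D. simulans (horizontal axis) and from D. sechellia (vertical axis) for each of the 1893 genes in early pupae. Orange points are the 89 genes whose 3 D. melanogaster arrays lay above all 6 other arrays at 1.5-fold or more, blue points the 116 below them, and Cpr100A lies far from D. simulans and from D. sechellia in opposite directions.

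To describe genes that stood apart from both species at the level of arrays, a gene was termed separated where all 3 D. melanogaster arrays lay above, or all below, the 6 arrays of D. simulans and D. sechellia and the mean of the arrays differed by at least 1.5-fold the same way from each. This is a count with no test, over arrays of 1 pool per species. In early pupae 89 genes were separated higher (4.7% of 1893) and 116 lower (6.13%), 205 in all. The higher genes had a median difference of 1.05 from the mean of the other species (0.66 to 2.57), the lower genes a median of -0.89 (-1.89 to -0.55). The genes that limma called against the mean of the other species are 2 of the 89 and 1 of the 116. Nearest to the limit of 1.5-fold were CG4928, inside it with differences between the array means of 0.59 from D. simulans and 0.63 from D. sechellia, and Dnaaf6, outside it with 0.58 and 1.33. Among genes with all D. melanogaster arrays below, CG13784 was inside with -0.59 and -1.26 and mmy outside with -0.58 and -0.80. Fitted differences count a near-identical pair of arrays once, so a few separated genes have a fitted difference a little under the limit.

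Many of the genes that separated higher did so at other stages too. Of the 89 higher genes, 54 were separated the same way in larvae (60.7%), 43 in late pupae (48.3%) and 29 in adults (32.6%), where over all genes 7.82%, 6.97% and 6.34% were separated higher at those stages. Of the 116 lower genes, 17 were separated lower in larvae (14.7%), 29 in late pupae (25%) and 23 in adults (19.8%), against 5.97%, 6.97% and 8.03% of all genes. All 3 other stages showed the separation for 21 of the 89 higher genes and 3 of the 116 lower genes, while none of the 3 did for 24 and 70. Whether the higher and lower genes differ in these shares was not tested. The median difference of the higher genes was 0.87 in larvae, 0.97 in late pupae and 0.53 in adults, and that of the lower genes -0.32, -0.48 and -0.35, with medians over all genes of -0.04, -0.08 and 0.00. The sign was the same as in early pupae for 83, 79 and 71 of the 89 higher genes in larvae, late pupae and adults, and for 87, 100 and 83 of the 116 lower genes.

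**Figure D2:**
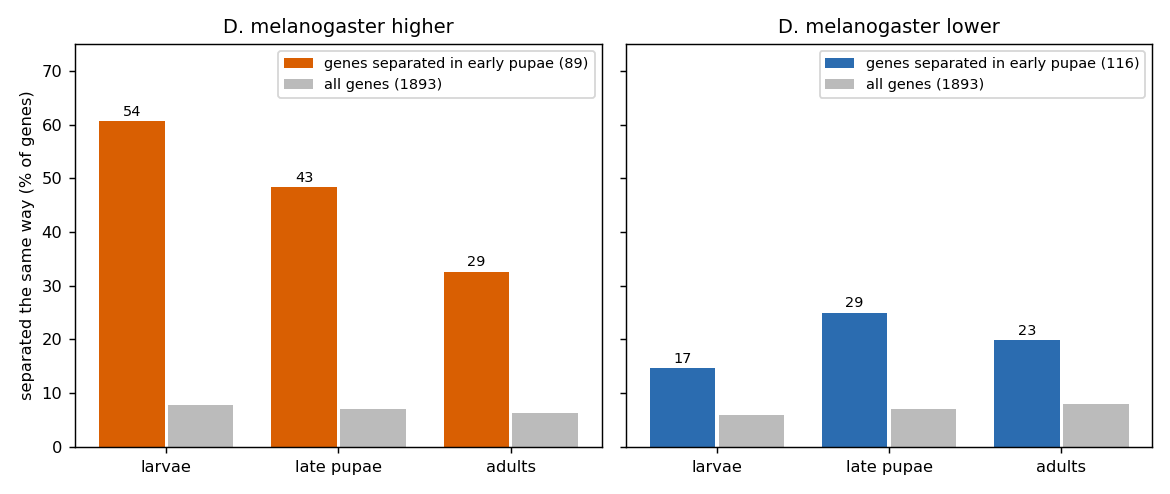
Share of genes separated the same way at each other stage (vertical axis, % of genes), for genes separated in early pupae (coloured bars, with the number of genes above) beside all 1893 genes (grey), for higher genes on the left and lower genes on the right. The higher genes reach 60.7% in larvae and fall to 32.6% in adults, and the lower genes stay between 14.7% and 25%.

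For the 116 lower genes the median change in log2 ratio between larvae and early pupae, larvae subtracted, was -0.16 in D. melanogaster, 0.35 in D. simulans and 0.53 in D. sechellia, and 9 of them were up at least 1.5-fold in D. melanogaster, 43 in D. simulans and 53 in D. sechellia. Down by as much were 31 in D. melanogaster, 16 in D. simulans and 19 in D. sechellia. Over all 1893 genes 299, 357 and 509 were up in these species and 288, 292 and 509 were down. For the 89 higher genes the median change was 0.27 in D. melanogaster, 0.04 in D. simulans and 0.15 in D. sechellia, where all genes had 0.05, 0.02 and 0.09. Since the genes were chosen on their early pupal values, these changes are a description only.

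Not all of these genes were measured in the hybrids. Of the 89 higher genes, 28 (31.5%) lacked hybrid values, against 6 of the 116 lower genes (5.17%) and 10.8% of all genes. Genes known only by a CG number made up 47.2% of the higher, 29.3% of the lower and 34.3% of all genes. Where hybrids were measured, the median difference of D. melanogaster from them was 1.08 for the higher genes (-0.18 to 3.09) and -0.82 for the lower genes (-2.95 to 0.46). Over all 1689 genes with hybrid values it was -0.01. Since the genes were chosen on the same D. melanogaster arrays set against the parents of the hybrids, these medians are a description only. By chromosome arm, higher genes made up 6.3% of the 254 genes on the X, 5.51% of 363 on 2L, 4.07% of 393 on 2R, 5.66% of 389 on 3L, 2.99% of 469 on 3R and 4% of 25 on chromosome 4, where 4.7% of all genes were higher. Lower genes made up 3.94% on the X, 6.34% on 2L, 7.38% on 2R, 6.68% on 3L, 5.12% on 3R and 16% (4 genes) on chromosome 4, where 6.13% of all genes were lower. These shares were not tested.

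Of the 12 separated genes farthest above both species, 9 were separated at all 3 other stages as well, CG2233 and CG32588 among them. SPH93, a serine protease homologue, read 0.32, 0.35 and 0.07 on the D. melanogaster arrays, against -2.25, -1.89 and -1.40 in D. simulans and -2.29, -2.11 and -2.35 in D. sechellia. The groups did not overlap, with a difference of 2.23 (SE 0.50, limma adjusted p = 0.0618), and the difference was 1.21 in larvae, 2.2 in late pupae and 0.80 in adults. Its early pupal levels were above the larval ones in all 3 species, since the mean log2 ratios in larvae were -1.86, -3.27 and -2.87 in D. melanogaster, D. simulans and D. sechellia, and the early pupal hybrids had -1.95, -0.79 and -1.28.

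Smox, the Smad transcription factor of the activin branch of TGF-beta signalling, which acts in growth and in the control of ecdysone production, had log2 ratios of 1.24, 1.27 and 1.13 on the D. melanogaster arrays, against -0.94, -0.71 and -0.76 in D. simulans and -0.38, -1.08 and -0.41 in D. sechellia. No array of the other species reached 0, and the difference was 1.96 (SE 0.37, limma adjusted p = 0.0618). It was 1.71 in larvae, 1.57 in late pupae and 0.76 in adults, and Smox was not measured in the hybrids.

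Pih1D1, named for the PIH1 domain of a co-chaperone subunit, read 1.86, 1.86 and 1.76 on the D. melanogaster arrays, against 0.07, 0.23 and -0.14 in D. simulans and 0.09, -0.25 and 0.13 in D. sechellia. Its D. melanogaster level was nearly constant over development, with mean log2 ratios of 1.86 in larvae, 1.74 in late pupae and 1.73 in adults. The early pupal difference was 1.82 (SE 0.44, limma adjusted p = 0.0703), that at the other stages 1.93 in larvae, 2.10 in late pupae and 1.25 in adults, and the hybrid pools had log2 ratios of -0.41, -0.04 and -0.04, below D. melanogaster.

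CG14891 read 0.74, 0.73 and 1.29 on the D. melanogaster arrays, against -1.26, -1.09 and -0.58 in D. simulans and -1.15, -1.70 and -1.18 in D. sechellia. It was called higher than in D. sechellia, by 2.44 (SE 0.42, limma adjusted p = 0.0399), and its difference from D. simulans was 1.99 (adjusted p = 0.17). The difference from the mean of both was 2.22 in early pupae and 1.64 in larvae, 2.69 in late pupae and 1.21 in adults, the late pupal one being called (adjusted p = 0.026). It has no hybrid values.

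nod, a kinesin-like protein that holds chromosomes on the meiotic spindle of females, had log2 ratios of 1.69, 1.67 and 1.64 on the D. melanogaster arrays, against 0.06, 0.15 and -0.24 in D. simulans and -0.17, -0.30 and -0.14 in D. sechellia. Its difference was 1.78 (SE 0.37, limma adjusted p = 0.0703) and 1.52 in larvae, 1.28 in late pupae and 0.95 in adults, with no values in hybrids. Kap-alpha1, an importin alpha that carries proteins into the nucleus, read 0.34, 0.32 and 0.63 on the D. melanogaster arrays, against -1.0, -0.83 and -1.17 in D. simulans and -0.54, -1.29 and -0.53 in D. sechellia. The D. melanogaster arrays of both genes lay above all others, and Kap-alpha1 differed by 1.43 (SE 0.34, limma adjusted p = 0.0703), with differences of 1.43 in larvae, 1.14 in late pupae and 0.64 in adults and log2 ratios of -1.63, -1.38 and -1.05 in the hybrids.

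The remaining 4 of these 12 are known by CG numbers. CG1910 read 0.10, 0.05 and 0.47 on the D. melanogaster arrays, against -2.0, -1.21 and -1.66 in D. simulans and -1.21, -1.63 and -1.26 in D. sechellia, a difference of 1.80 (adjusted p = 0.0618). At the other stages the difference of CG1910 was 1.61 in larvae, 1.2 in late pupae and 0.06 in adults, and its hybrids had log2 ratios of -1.62, -1.67 and -1.92. CG34166 read 1.08, 1.09 and 1.42 on the D. melanogaster arrays, against -0.65, -0.34 and -0.09 in D. simulans and -0.64, -0.29 and -0.60 in D. sechellia, with a difference of 1.66 (adjusted p = 0.149). Both genes were thus above all other arrays, without a call. CG34166 differed by 0.86 in larvae, 1.28 in late pupae and 0.82 in adults, and its hybrids had log2 ratios of -0.52, -0.38 and -0.71. CG11723 read 1.45, 1.49 and 1.74 on the D. melanogaster arrays, against -0.19, -0.18 and 0.10 in D. simulans and 0.00, 0.28 and -0.07 in D. sechellia, with a difference of 1.59 (adjusted p = 0.102) in early pupae and 1.35 in larvae, 1.55 in late pupae and 0.77 in adults, and no hybrid values. In CG15177, the log2 ratios were 1.68, 1.70 and 1.83 on the D. melanogaster arrays, against 0.17, 0.41 and 0.29 in D. simulans and 0.18, -0.26 and 0.18 in D. sechellia, with a difference of 1.63 (adjusted p = 0.134). The hybrids of CG15177, at -0.77, -1.04 and -1.08, lay below every array of both parents, and its difference was 1.65 in larvae, 1.97 in late pupae and 0.71 in adults.

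**Figure D3:**
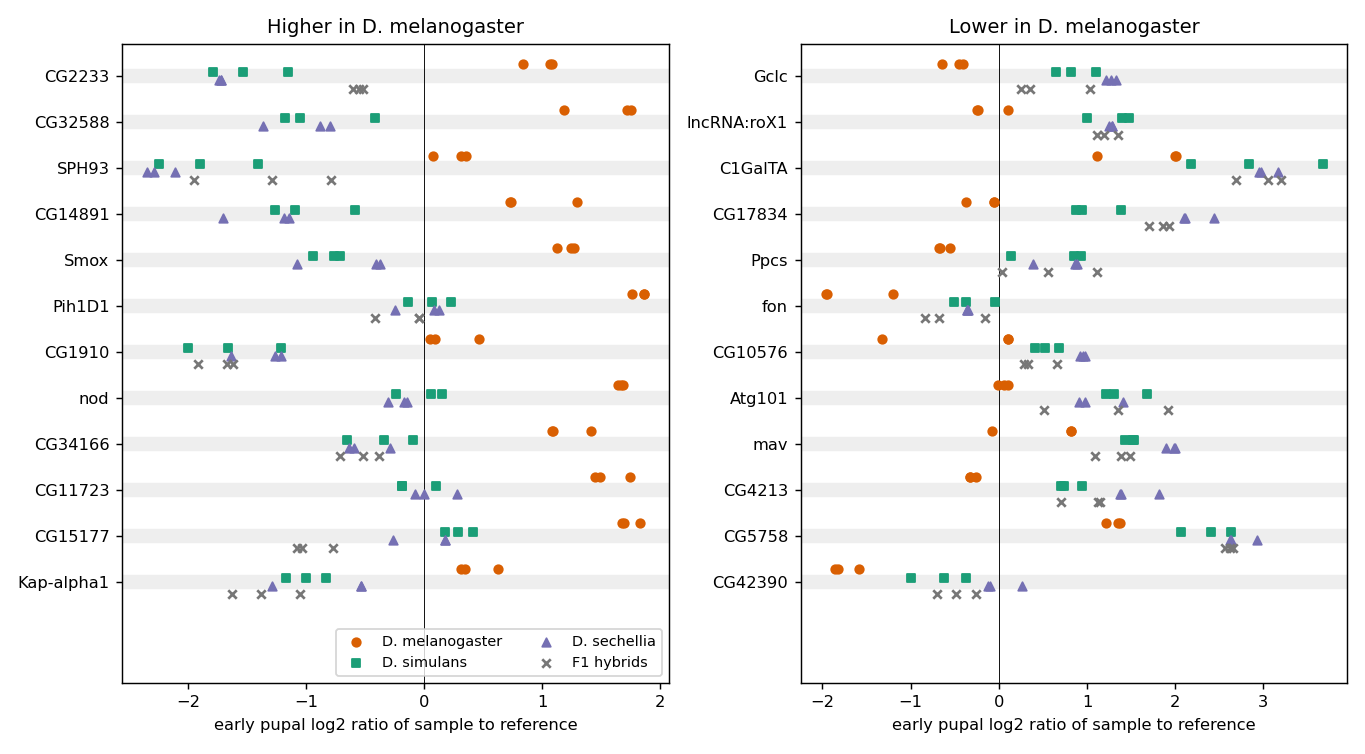
Early pupal log2 ratio of sample to reference (horizontal axis) on every array for the 12 genes farthest above both species (left) and the 12 farthest below (right), one symbol per array or hybrid pool, D. melanogaster topmost in each line. The orange D. melanogaster points of each gene do not overlap the green D. simulans or violet D. sechellia points, and the grey hybrid crosses of CG2233 lie between the groups.

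Of the 12 separated genes farthest below both species, 10 were separated at none of the other stages, and CG17834, described above, is one of the 12. C1GalTA, a galactosyltransferase that builds the core of O-linked glycans, had log2 ratios of 2.01, 2.0 and 1.12 on the D. melanogaster arrays, against 2.84, 3.67 and 2.18 in D. simulans and 2.95, 3.17 and 2.97 in D. sechellia. Early pupae were its peak in every group, but a lower one in D. melanogaster: the early pupal means were 1.56, 2.90 and 3.07 in D. melanogaster, D. simulans and D. sechellia, and the larval means 0.48, 0.44 and 0.27. The difference was -1.42 (SE 0.38, limma adjusted p = 0.108) against 0.13 in larvae, 0.22 in late pupae and 0.45 in adults, and the hybrid pools had 3.05, 2.68 and 3.20.

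Gclc, the catalytic subunit of the enzyme that starts glutathione synthesis, read -0.45, -0.40 and -0.65 on the D. melanogaster arrays, against 0.82, 1.10 and 0.65 in D. simulans and 1.22, 1.33 and 1.27 in D. sechellia. Its difference was -1.61 (SE 0.42, limma adjusted p = 0.102), the hybrids had log2 ratios of 1.04, 0.25 and 0.35, and it differed by -0.52 in larvae, -0.82 in late pupae and -1.07 in adults. Ppcs, an enzyme of coenzyme A synthesis, read -0.68, -0.66 and -0.55 on the D. melanogaster arrays, against 0.94, 0.85 and 0.13 in D. simulans and 0.89, 0.39 and 0.86 in D. sechellia. D. melanogaster lay below 0 in both genes and the other species above it, with a difference for Ppcs of -1.25 (adjusted p = 0.375) in early pupae and -0.54 in larvae, -0.06 in late pupae and -0.18 in adults, and hybrid log2 ratios of 1.11, 0.04 and 0.56.

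mav, a ligand of the TGF-beta family, read 0.81, 0.82 and -0.07 on the D. melanogaster arrays, against 1.43, 1.52 and 1.54 in D. simulans and 2.0, 1.90 and 1.98 in D. sechellia. On the D. melanogaster arrays the near-identical pair lay well above replicate 3, and all lay below the other species. The difference was -1.35 (SE 0.33, limma adjusted p = 0.0703), with differences of -0.16 in larvae, -0.10 in late pupae and 0.08 in adults and log2 ratios of 1.48, 1.39 and 1.09 in the hybrids. fon, a hemolymph protein needed for clotting, read -1.96, -1.94 and -1.2 on the D. melanogaster arrays, against -0.51, -0.05 and -0.37 in D. simulans and -0.36, -0.34 and -0.36 in D. sechellia. Its differences were of the other sign in late pupae and adults: the early pupal difference was -1.24 (adjusted p = 0.38), the others -0.07 in larvae, 0.61 in late pupae and 0.58 in adults, and the hybrids had log2 ratios of -0.68, -0.16 and -0.84.

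roX1 (lncRNA:roX1), one of the RNAs that guide the dosage compensation complex to the male X chromosome, read -0.24, -0.24 and 0.11 on the D. melanogaster arrays, against 1.40, 0.99 and 1.47 in D. simulans and 1.28, 1.29 and 1.25 in D. sechellia. The difference was -1.35 (SE 0.33, limma adjusted p = 0.0703), and it was -1.29 in larvae, -0.31 in late pupae and -0.71 in adults. The hybrid pools, at 1.11, 1.19 and 1.35, were in the range of the parents, and the separation of roX1 was seen again in larvae. It was the single measured member of the dosage compensation list.

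Atg101, a subunit of the Atg1 kinase complex that starts autophagy, read 0.11, 0.06 and -0.01 on the D. melanogaster arrays, against 1.68, 1.21 and 1.30 in D. simulans and 0.91, 1.41 and 0.97 in D. sechellia. Its difference was -1.25 (SE 0.52, limma adjusted p = 0.401), with differences of -0.31 in larvae, -0.44 in late pupae and 0.26 in adults and hybrid log2 ratios of 1.92, 0.52 and 1.35. Early pupae thus lay apart while the other stages differed by less than 1 SE.

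Among the genes known by CG numbers, CG10576 read 0.11, 0.11 and -1.32 on the D. melanogaster arrays, against 0.41, 0.52 and 0.68 in D. simulans and 0.95, 0.92 and 0.98 in D. sechellia, a difference of -1.35 (adjusted p = 0.0703). On D. melanogaster replicate 3 it lay more than 1 below the near-identical pair. Over 30 alternative ways of processing, its difference from the mean of the other species ran from -1.38 to -0.63. CG10576 differed by -0.24 in larvae, -0.47 in late pupae and -0.40 in adults and had 0.28, 0.66 and 0.34 in the hybrids. CG5758 read 1.36, 1.37 and 1.22 on the D. melanogaster arrays, against 2.40, 2.63 and 2.07 in D. simulans and 2.63, 2.93 and 2.62 in D. sechellia, with a difference of -1.28 (adjusted p = 0.102). For CG5758 the other differences were 0.07 in larvae, -0.60 in late pupae and -0.34 in adults and the hybrids, at 2.62, 2.65 and 2.57, were with the parents. CG42390 read -1.86, -1.82 and -1.58 on the D. melanogaster arrays, against -0.99, -0.38 and -0.62 in D. simulans and -0.12, 0.26 and -0.10 in D. sechellia, with a difference of -1.42 (adjusted p = 0.102). The other stages of CG42390 showed no such gap, at -0.04 in larvae, -0.01 in late pupae and 0.16 in adults, and its hybrids had log2 ratios of -0.26, -0.48 and -0.70. CG4213 read -0.32, -0.32 and -0.26 on the D. melanogaster arrays, against 0.95, 0.73 and 0.70 in D. simulans and 1.38, 1.82 and 1.37 in D. sechellia. It was called lower than in D. sechellia, with a difference of -1.89 (SE 0.38, limma adjusted p = 0.0356), and had -1.09 against D. simulans. CG4213 differed from the mean of both by -1.49 in early pupae and by -0.35 in larvae, -0.67 in late pupae and -0.57 in adults, and its hybrids had log2 ratios of 1.15, 1.12 and 0.70.

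**Figure D4:**
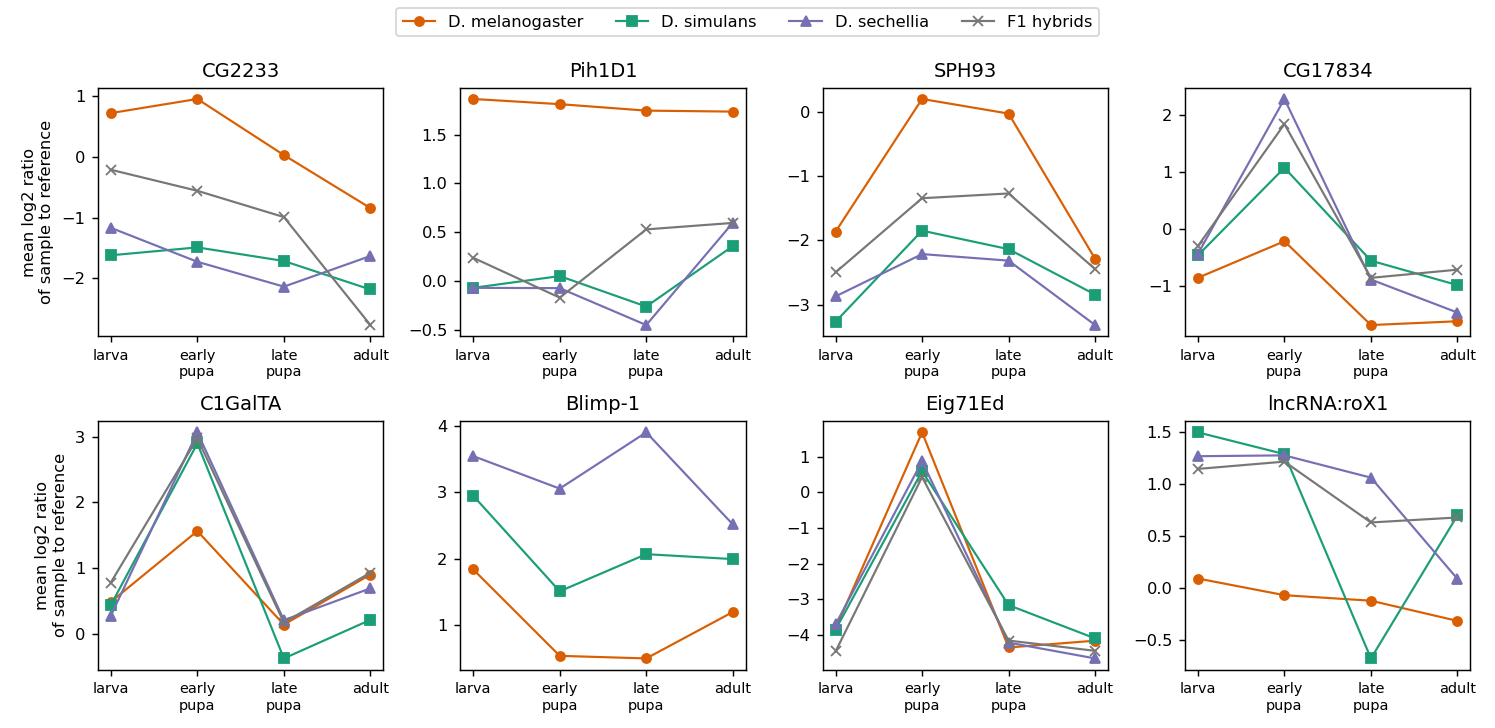
Mean log2 ratio of sample to reference (vertical axis, a scale of its own in each panel) at the 4 stages (horizontal axis) for 8 genes in D. melanogaster, D. simulans, D. sechellia and their F1 hybrids, each point the mean of the arrays or pools of a group with near-identical arrays counted once. CG2233 and Pih1D1 run above the other species throughout, whereas CG17834 and C1GalTA part in early pupae, and Blimp-1 has no hybrid line because it was not measured there.

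The ecdysone list had 5 measured members, of which Eig71Ed was separated higher and Blimp-1 lower, beside 4.7% and 6.13% of all genes. limma called 0 of the 5 against the mean of the other species. Eig71Ed read 1.43, 1.43 and 1.93 on the D. melanogaster arrays, against 0.14, 0.82 and 0.80 in D. simulans and 0.56, 1.10 and 0.71 in D. sechellia, a difference of 0.95 (SE 0.51, limma adjusted p = 0.548). Its larval mean was -3.82 in D. melanogaster, -3.85 in D. simulans and -3.71 in D. sechellia, its differences -0.04 in larvae, -0.66 in late pupae and 0.22 in adults, and its hybrids had log2 ratios of 0.81, 0.24 and 0.23. Blimp-1 encodes a transcriptional repressor induced by ecdysone, whose decay times the onset of the next regulator in prepupae. It read 0.54, 0.58 and 0.51 on the D. melanogaster arrays, against 1.77, 1.33 and 1.43 in D. simulans and 3.02, 3.11 and 2.98 in D. sechellia. The 3 species formed 3 levels with no overlap, and Blimp-1 was called lower in D. melanogaster than in D. sechellia, with a difference of -2.52 (SE 0.42, limma adjusted p = 0.0356), with -0.97 against D. simulans (adjusted p = 0.696). The same order held at the other stages, where the difference from the mean was -1.41 in larvae, -2.49 in late pupae and -1.06 in adults beside -1.75 in early pupae, and the late pupal difference was called (adjusted p = 0.0278). It has no hybrid values. The other members, Eip63E, Eip93F and Npc1a, differed from the mean of the other species by 0.05, 0.04 and -0.25, so the list's members did not share a direction.

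Of the 29 lists of pathway and tissue genes, 26 had a measured gene, 17 of these a separated one and 9 none. The proteasome, which breaks down tagged proteins, had 23 measured members, of which 0 were separated higher and 4 lower, where 4.7% of all genes were separated higher and 6.13% lower. limma called 0 of the 23 against the mean of the other species, with 3 at an unadjusted p under 0.05. With every array taken as a replicate for the adjusted p, 11 passed in either direction, their fold taken from the fit with merged arrays. Over all 1893 genes, 189 had an unadjusted p under 0.05 against that mean, and 398 were called with every array taken as a replicate for the fold as well. Rpn12, of the regulatory particle, read -1.10, -1.10 and -0.62 on the D. melanogaster arrays, against 0.04, -0.02 and 0.24 in D. simulans and 1.5, 1.46 and 1.47 in D. sechellia. It was called lower than in D. sechellia, with a difference of -2.33 (SE 0.40, limma adjusted p = 0.0167), and its difference from D. simulans was -0.95 (adjusted p = 0.627). The difference of Rpn12 from the mean of both was -1.64 in early pupae and -0.21 in larvae, -1.32 in late pupae and -1.60 in adults, so larvae differed least, and the hybrids had log2 ratios of 1.22, 0.95 and 0.64. Prosbeta2, of the catalytic core, read -1.69, -1.72 and -1.58 on the D. melanogaster arrays, against -0.51, -1.55 and -0.84 in D. simulans and 0.01, -0.32 and 0.03 in D. sechellia, with a difference of -1.08 (adjusted p = 0.219). At the other stages Prosbeta2 differed by -0.17 in larvae, -1.16 in late pupae and -1.32 in adults, and its hybrid log2 ratios were 0.03, -0.06 and -0.61. Rpn2, of the regulatory particle, read -0.39, -0.37 and 0.19 on the D. melanogaster arrays, against 0.37, 1.30 and 0.30 in D. simulans and 0.60, 0.91 and 0.66 in D. sechellia, with a difference of -0.81 (adjusted p = 0.571). The difference of Rpn2 at the other stages was 0.21 in larvae, 0.11 in late pupae and -0.06 in adults, and the hybrid log2 ratios were 0.74, 0.21 and 0.20. Both lay below the other species on every array, the second of them in early pupae alone. Rpt4R, a paralogue of the regulatory ATPase Rpt4, read -0.35, -0.39 and 0.10 on the D. melanogaster arrays, against 0.97, 0.89 and 0.66 in D. simulans and 0.48, 0.85 and 0.47 in D. sechellia, with a difference of -0.89 (adjusted p = 0.368). The difference of Rpt4R at the other stages was 0.02 in larvae, -1.0 in late pupae and -0.81 in adults, and the hybrid log2 ratios were 0.86, 0.53 and 0.53. Over the 23 members the median difference was -0.20 from D. simulans and -0.61 from D. sechellia, where all genes had -0.08 and -0.05, and 14 and 16 of the 23 were below 0, where 56.5% and 53.4% of all genes were. Other members lay on the opposite side: Prosbeta4 had 1.17 and 0.33 against D. simulans and D. sechellia, and Prosalpha4T1, a paralogue of a core subunit, 0.60 and 1.05.

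The testis list had 16 measured members, with medians of 0.25 against D. simulans and 0.70 against D. sechellia. Of the 16, 13 and 14 were above 0, where 43.5% and 46.5% of all genes were. limma called 0 of them against the mean of the other species, with 2 at an unadjusted p under 0.05. With every array taken as a replicate for the adjusted p, 5 passed in either direction, their fold again taken from the fit with merged arrays. The part of these genes in the other differences was not tested. For all 1893 genes the counts at an unadjusted p and with every array were 189 and 398, the fold of the 398 taken from every array. Separated were 1 higher and 0 lower of the 16, beside 4.7% and 6.13% of all genes. CG8701, the one that was separated, read 0.04, 0.04 and 0.46 on the D. melanogaster arrays, against -0.86, -0.87 and -1.10 in D. simulans and -1.86, -1.78 and -1.84 in D. sechellia. The D. melanogaster arrays did not overlap the others, and the difference was 1.62 (SE 0.43, limma adjusted p = 0.102) and 1.80 in larvae, 2.02 in late pupae and 0.84 in adults. The hybrid pools had -2.56, -2.89 and -3.08, below both parents. betaTub85D, the testis-specific beta tubulin, differed by 0.42 and 0.99 from D. simulans and D. sechellia, Mst84Db, a sperm tail protein gene, by 0.28 and 1.14, and mil, of the nucleosome assembly protein family, by 0.51 and 1.33. Members below D. simulans were S-Lap1, with -0.59 against D. simulans and 0.60 against D. sechellia, TTLL6B, with -0.51 and 0.02, and TTLL4B, with -0.03 and 0.64.

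**Figure D5:**
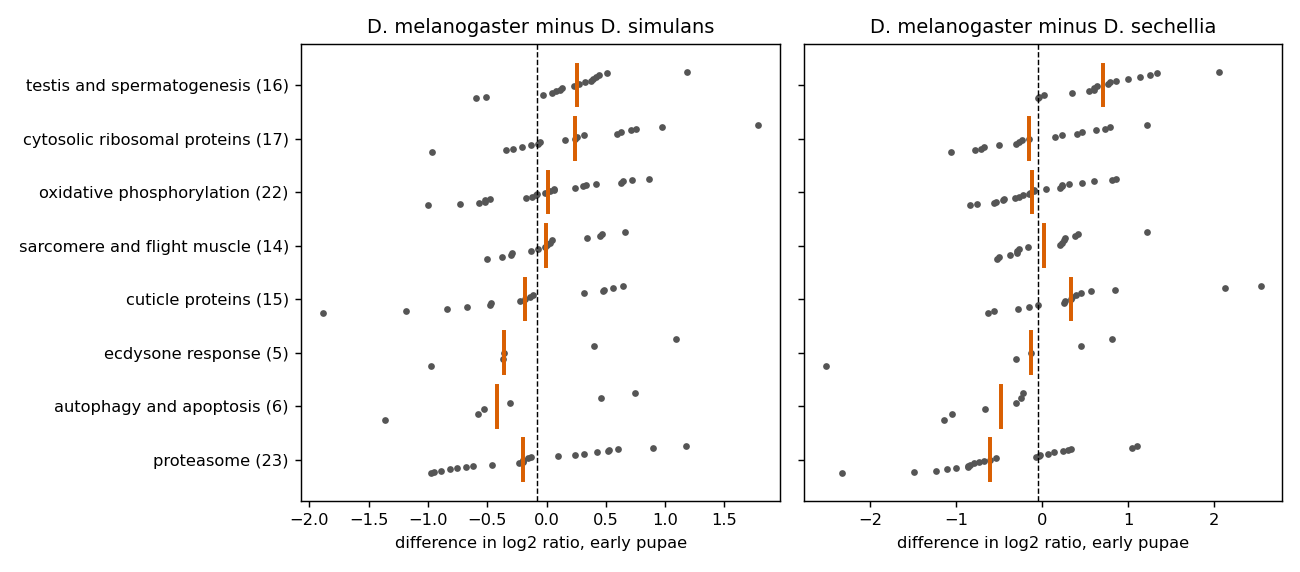
Early pupal difference in log2 ratio of D. melanogaster from D. simulans (left) and from D. sechellia (right) for every measured gene (points) of 8 lists, with the list's median (orange bar), the number of genes in brackets and the median of all 1893 genes (dashed line). The testis genes lie mostly to the right of the dashed line (medians 0.25 and 0.70) and the proteasome genes mostly to the left against D. sechellia (median -0.61), and most lists have genes on both sides.

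Autophagy and apoptosis genes numbered 6, with medians of -0.41 against D. simulans and -0.49 against D. sechellia, where all genes had -0.08 and -0.05. Of the 6, 0 were separated higher and 2 lower, beside 4.7% and 6.13% of all genes. limma called 0 of them against the mean of the other species. Beside Atg101, the separated member was Atg14, of the lipid kinase complex that forms autophagosomes, which read -1.40, -1.41 and -0.96 on the D. melanogaster arrays, against -0.59, -0.48 and -0.74 in D. simulans and -0.06, -0.20 and -0.07 in D. sechellia. Its difference was -0.81 (adjusted p = 0.416) and -0.45 in larvae, -0.58 in late pupae and -1.02 in adults, the hybrids had log2 ratios of -0.30, -0.45 and -0.13, and all 3 D. melanogaster arrays lay below the rest. The remaining members Atg18a, Atg2, Atg7 and Diap2 differed from the mean of the other species by -0.38, -0.31, 0.04 and 0.10. Atg7 had 0.745 against D. simulans and -0.663 against D. sechellia, and Diap2 had 0.457 and -0.25.

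Of 17 cytosolic ribosomal proteins, 3 were separated higher and 1 lower, beside 4.7% and 6.13% of all genes. RpL35 read 1.62, 1.61 and 1.87 on the D. melanogaster arrays, against 0.46, -0.13 and -0.45 in D. simulans and 0.59, 0.43 and 0.65 in D. sechellia. The difference of RpL35 was 1.5 (SE 0.50, limma adjusted p = 0.262), 1.45 in larvae, 0.49 in late pupae and 1.77 in adults, and the hybrids, at 1.21, 1.25 and 1.30, lay between D. melanogaster and both parents. RpLP2 read 0.17, 0.19 and 0.60 on the D. melanogaster arrays, against -0.26, 0.01 and -0.71 in D. simulans and -0.41, -0.05 and -0.41 in D. sechellia, with a difference of 0.67 (adjusted p = 0.683). The difference of RpLP2 at the other stages was 0.12 in larvae, -0.28 in late pupae and 0.75 in adults, and the hybrid log2 ratios were -0.06, 0.28 and -0.15. RpL35 was separated in larvae and adults too, RpLP2 in early pupae alone, although the difference of RpLP2 was no smaller in adults (0.75) than in early pupae (0.67). RpS19a read -1.17, -1.19 and -0.65 on the D. melanogaster arrays, against -1.81, -1.62 and -1.57 in D. simulans and -1.5, -1.76 and -1.56 in D. sechellia, with a difference of 0.74 (adjusted p = 0.637). The difference of RpS19a at the other stages was 0.20 in larvae, -0.33 in late pupae and -1.23 in adults, and the hybrid log2 ratios were -1.66, -0.76 and -1.48. Over the 30 alternatives its early pupal difference ran from 0.48 to 0.77. In adults its D. melanogaster arrays were below all the others, the opposite of early pupae. RpL15, the lower one, read 1.5, 1.53 and 1.77 on the D. melanogaster arrays, against 2.37, 3.11 and 2.35 in D. simulans and 2.53, 2.87 and 2.54 in D. sechellia, with a difference of -1.01 (adjusted p = 0.27). The difference of RpL15 at the other stages was -0.77 in larvae, -0.62 in late pupae and -0.63 in adults, and the hybrid log2 ratios were 2.79, 2.75 and 2.33. Over the list the medians were 0.24 against D. simulans and -0.16 against D. sechellia, with no shared direction.

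Metabolic and transport genes gave 1 separated member to a list, where 4.7% of all genes were separated higher and 6.13% lower. Higher were 1 of 8 detoxification, 1 of 22 oxidative phosphorylation and 1 of 27 vesicle trafficking genes. Lower were 1 of 8 lipid metabolism genes and 1 of 6 of larval serum and fat body. Lower too were 1 of 10 gut and Malpighian markers and 1 of 16 translation genes. limma called 0 of each list against the mean of the other species, and these shares were not tested. Desat1, the fatty acid desaturase needed for membrane lipids and for cuticular hydrocarbons, read -1.2, -1.18 and -0.46 on the D. melanogaster arrays, against 0.06, 0.19 and -0.08 in D. simulans and 0.76, 0.62 and 0.75 in D. sechellia, with a difference of -1.2 (adjusted p = 0.372). Desat1 differed by -0.38 in larvae, -0.75 in late pupae and -0.18 in adults, and its hybrids had log2 ratios of 0.37, 0.67 and 0.29. LpR1, a lipophorin receptor, read -1.0, -0.98 and -0.68 on the D. melanogaster arrays, against 0.34, -0.07 and -0.15 in D. simulans and -0.02, -0.07 and -0.12 in D. sechellia, with a difference of -0.82 (adjusted p = 0.404). The difference of LpR1 at the other stages was -0.01 in larvae, 0.27 in late pupae and 0.41 in adults, and the hybrid log2 ratios were -0.41, -0.60 and -0.24. Both lay below the other species in early pupae, and LpR1 on the other side of 0 in late pupae and adults. GstD1, a detoxifying glutathione transferase, read 0.01, 0.04 and 0.88 on the D. melanogaster arrays, against -0.47, -0.37 and -0.24 in D. simulans and -0.52, -0.62 and -0.53 in D. sechellia, with a difference of 0.92 (adjusted p = 0.402). The difference of GstD1 at the other stages was 0.27 in larvae, 0.14 in late pupae and -0.12 in adults, and the hybrid log2 ratios were -0.11, -0.17 and -0.32. Over the 30 alternatives its early pupal difference ran from 0.49 to 0.95. COX7AL, of the cytochrome c oxidase family, read -0.33, -0.33 and -0.24 on the D. melanogaster arrays, against -0.67, -0.96 and -1.10 in D. simulans and -0.84, -1.34 and -0.84 in D. sechellia, with a difference of 0.72 (adjusted p = 0.549) and 0.86 in larvae, 1.58 in late pupae and 1.0 in adults, and no hybrid values. It was separated at all 4 stages, whereas GstD1 was in early pupae alone. VhaAC45, an accessory subunit of the proton pump, read -0.05, -0.03 and 0.73 on the D. melanogaster arrays, against 0.94, 1.48 and 1.54 in D. simulans and 1.49, 1.31 and 1.49 in D. sechellia, with a difference of -1.01 (adjusted p = 0.262). The difference of VhaAC45 at the other stages was -0.61 in larvae, -0.59 in late pupae and -1.33 in adults, and the hybrid log2 ratios were 1.22, 0.72 and 0.79. IleRS, the isoleucyl-tRNA synthetase, read 0.19, 0.16 and 0.55 on the D. melanogaster arrays, against 1.05, 1.06 and 1.08 in D. simulans and 1.17, 1.53 and 1.15 in D. sechellia, with a difference of -0.84 (adjusted p = 0.365). The difference of IleRS at the other stages was -0.33 in larvae, -0.43 in late pupae and -0.79 in adults, and the hybrid log2 ratios were 1.07, 0.98 and 1.17. Sec61gamma, of the channel through which proteins enter the endoplasmic reticulum, was separated higher. It read 0.69, 0.70 and 0.99 on the D. melanogaster arrays, against -0.97, -0.82 and -0.84 in D. simulans and -0.20, -0.16 and -0.20 in D. sechellia, with a difference of 1.37 (adjusted p = 0.199). The difference of Sec61gamma at the other stages was 1.69 in larvae, 0.35 in late pupae and 0.36 in adults, and the hybrid log2 ratios were -0.34, -0.27 and 0.23.

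Genes of the body wall, pigment and muscle followed. Of 15 cuticle genes 0 were separated higher and 1 lower, and of 4 pigmentation genes 0 and 1. Of 14 muscle genes 1 was separated higher and 0 lower, beside 4.7% and 6.13% of all genes. limma called 0 of these against the mean of the other species. yellow-h, of the yellow family that acts in pigmentation, read -0.95, -1.0 and -1.35 on the D. melanogaster arrays, against 0.66, 0.87 and 0.66 in D. simulans and -0.07, -0.58 and -0.04 in D. sechellia. The 3 species did not overlap, the difference was -1.37 (SE 0.37, limma adjusted p = 0.111), and adults had the opposite sign, with -1.04 in larvae, -0.29 in late pupae and 0.89 in adults. The hybrids, at 1.5, 1.65 and 2.2, were above both parents, and the limma difference of D. melanogaster from them was -2.95 (adjusted p = 0.00029). Gasp, a chitin-binding protein of the cuticle and tracheae, read -1.47, -1.48 and -1.2 on the D. melanogaster arrays, against -1.01, -0.20 and -0.80 in D. simulans and -0.59, -0.83 and -0.55 in D. sechellia, with a difference of -0.65 (adjusted p = 0.774). The difference of Gasp at the other stages was -0.16 in larvae, -0.76 in late pupae and -0.03 in adults, and the hybrid log2 ratios were -0.39, 0.63 and 0.21. Zasp66, a protein of the muscle Z-disc, read -1.13, -1.15 and -0.82 on the D. melanogaster arrays, against -1.80, -1.76 and -1.36 in D. simulans and -2.14, -2.27 and -2.11 in D. sechellia, with a difference of 0.94 (adjusted p = 0.342). Its differences at the other stages were below 0, with -0.41 in larvae, -0.74 in late pupae and -0.71 in adults, and its hybrids had log2 ratios of -1.49, -1.79 and -1.90. No other of the 14 muscle genes measured was separated, and Act57B, Act88F and Mlc1 differed by 0.36, -0.12 and 0.06 from the mean of the other species.

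Cpr100A, a structural protein of the cuticle, lay between D. simulans and D. sechellia. Its log2 ratios were -1.23, -1.2 and -0.79 on the D. melanogaster arrays, against 0.69, 1.10 and 0.85 in D. simulans and -3.88, -3.20 and -3.88 in D. sechellia. The 3 groups did not overlap, and Cpr100A was called higher in D. melanogaster than in D. sechellia, by 2.54 (SE 0.48, limma adjusted p = 0.0251), while its difference from D. simulans was -1.88 (adjusted p = 0.192). That call was lost with arrays scaled to the same SD (2.17, adjusted p = 0.0651). D. sechellia differed from D. simulans by -4.42 (SE 0.48, limma adjusted p = 7.73e-05), and the hybrid pools, at -3.43, -3.40 and -3.22, were at the level of D. sechellia. In larvae the means were -2.05, -1.5 and -1.39 in D. melanogaster, D. simulans and D. sechellia, a range of less than 1, and D. melanogaster lay lowest there. The difference from the mean of both was 0.33 in early pupae and -0.60 in larvae, -0.55 in late pupae and -1.33 in adults. Over the 15 cuticle genes the median was -0.18 against D. simulans and 0.34 against D. sechellia, and TwdlE, of the Tweedle family of cuticle proteins, had 0.48 and 2.13.

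The other genes called against D. sechellia were CG10734, CG30472 and elfless, which were higher, and CG5958 and CG10338, which were lower. All 5 calls were lost with arrays scaled to the same SD (adjusted p = 0.0651 for CG30472, 0.092 for CG10734 and 0.102 for the others) and also with arrays centred on their median. Of the 13 calls against D. sechellia, those of CG17834 and Rpn12 held under all 30 alternatives run on them. CG10734 read 1.13, 1.13 and 0.98 on the D. melanogaster arrays, against -0.18, -0.32 and 0.05 in D. simulans and -0.93, -1.46 and -0.91 in D. sechellia. Its difference was 2.25 from D. sechellia (SE 0.42, limma adjusted p = 0.0495) and 1.2 from D. simulans, and from the mean of both 1.73 in early pupae and 2.29 in larvae, 2.15 in late pupae and 1.16 in adults, with no hybrid values. CG30472 read 1.65, 1.61 and 1.96 on the D. melanogaster arrays, against 0.49, 0.77 and 0.09 in D. simulans and -0.23, -0.29 and -0.26 in D. sechellia. The D. melanogaster arrays of both genes were above every other, and CG30472 differed by 2.06 from D. sechellia (adjusted p = 0.043), 1.34 from D. simulans, and 1.70 from the mean of both, with differences of 1.43 in larvae, 1.70 in late pupae and 1.09 in adults and log2 ratios of -0.96, -0.69 and -0.99 in the hybrids. elfless, which encodes a RING finger protein, read 0.59, 0.69 and 0.48 on the D. melanogaster arrays, against -0.44, -0.34 and -0.56 in D. simulans and -1.38, -0.91 and -1.19 in D. sechellia. It differed by 1.66 from D. sechellia (adjusted p = 0.0495), 1.0 from D. simulans and 1.33 from the mean of both, with differences of 1.33 in larvae, 1.21 in late pupae and 0.83 in adults and log2 ratios of -0.74, -0.79 and -0.55 in the hybrids. CG10338 read 0.55, 0.54 and 0.55 on the D. melanogaster arrays, against 1.74, 1.28 and 1.5 in D. simulans and 2.17, 2.17 and 2.14 in D. sechellia. Its difference was -1.61 from D. sechellia (adjusted p = 0.0452), -0.96 from D. simulans and -1.28 from the mean of both, with differences of -0.53 in larvae, -0.68 in late pupae and -0.21 in adults and log2 ratios of 2.07, 1.84 and 1.69 in the hybrids. CG5958 read -0.04, -0.07 and 0.50 on the D. melanogaster arrays, against 0.67, 0.47 and 0.56 in D. simulans and 1.71, 1.93 and 1.72 in D. sechellia. It was the one called gene beside Cpr100A that was not separated, since replicate 3 of D. melanogaster lay within the D. simulans range and the array means of these species differed by less than 1.5-fold, with -1.60 from D. sechellia (adjusted p = 0.0452), -0.35 from D. simulans and -0.97 from the mean of both. CG5958 differed by 0.13 in larvae, -0.53 in late pupae and -0.90 in adults at the other stages, and its hybrids, at 1.79, 1.68 and 1.73, were close to D. sechellia.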

How the data were processed

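Log2 ratios of sample (Alexa647) to a common reference (Alexa555), with no dye swap, were taken per spot as deposited. Before that, the authors removed spots below an intensity of 100 or 2-fold over background, required both spots of an element to be usable throughout a species (or the hybrids) at the 4 stages, and normalised each array by a joint loess over position and intensity. The scanner values are not used here. Precision is limited by how many arrays and pools there are, with 1 pool for each species and stage.

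Duplicate spots (2 per element) were averaged and a gene was given its first element, named by the platform's annotation (14966 of 27648 probes with 1 symbol) or, for 162 of the 2830 elements measured in the 3 species, by the CG number in a gene list of the authors that is held here in part (1317 rows used). Elements with several names (27) or none (836) were left out. Near-identical arrays were merged and the arrays of a pure species and stage averaged, which gave 23 units in 16 groups for limma 3.58.1 (R 4.3.3, prior degrees of freedom 10.2, 7 residual for genes with hybrid values and 0 for the others). P-values therefore carry the spread between hybrid pools, and none between pools of a species. limma and SAM were also run on simulated data. For limma the errors were drawn from its own prior, alike for species and hybrids, and genes without hybrid values were left out. That run could therefore not show whether hybrid pools stand in for pools of a species, or how genes without hybrid values behave. SAM was run over the 6 spots of a group with 100 permutations at a false discovery rate of 5%.

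Genes named are those called in a comparison, the 12 highest and 12 lowest separated genes by the smaller of their differences from D. simulans and D. sechellia, and separated members of the lists. The genes, lists and rules were chosen with earlier results of these data known. Genes named beside these (the members of a list given as contrast, and those next to the 1.5-fold limit) were picked after their values were seen. Same-numbered arrays of different species did not deviate together (correlations of -0.288 to 0.23), so the replicate numbers do not pair the arrays. No sequences are printed here, since the tables used hold gene names alone.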

Additional observations from a re-analysis of the deposited data

Results flagged for a closer look

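For 8 separated genes the arrays of D. melanogaster lay on opposite sides of the other species at 2 stages. Genes above the others in early pupae and below them at another stage were CG3355 (difference 1.46 in early pupae and -0.88 in larvae), CG3982 (0.67 and -0.92 in adults), mld (1.01 and -1.15 in adults), Reg-5 (0.86 and -1.07 in adults) and RpS19a (0.74 and -1.23 in adults). The reverse was seen for akirin (-1.33 in early pupae and 0.62 in larvae), Bhmt (-1.07 and 0.65 in larvae) and CG8654 (-0.96 and 0.82 in adults). The difference in early pupae minus that at the named stage, tested for these genes after their values were seen, was largest for CG3355 (2.34, SE 0.65, limma adjusted p = 0.802) and smallest for CG3982 (1.59, SE 0.46, adjusted p = 0.566), and none of the 8 passed the threshold (adjusted p-values of 0.566 to 0.802).

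For Cpr100A the early pupal log2 difference, D. sechellia minus D. simulans, was -4.42 (SE 0.48, limma adjusted p = 7.73e-05), and the D. melanogaster arrays lay between these species.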

How the results depend on the processing

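Counts of called genes depended on the spread they were tested against. Taking every array as a replicate gave 398 genes against the mean of D. simulans and D. sechellia, 354 against D. simulans, 654 against D. sechellia, 192 the same way against both and 283 for early pupae against the other stages, and adding a replicate block gave 399, 361, 653, 195 and 288, although the numbers do not pair the arrays. SAM gave 406 against D. simulans, 688 against D. sechellia and 220 the same way. With only early pupal groups in the fit the counts were 54 (mean), 24 (D. simulans), 70 (D. sechellia) and 11 (same way). Against the mean, 13 genes were called with near-identical arrays not merged, and 16 over all elements, named or not. Against D. sechellia, where 13 genes were called, 2 were with arrays scaled to the same SD (0 higher and 2 lower), 7 with arrays centred on their median, 35 over all elements and 5 over genes also measured in the hybrids. The 205 separated genes became 49 at 2-fold and 330 over all elements.

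Leaving out 1 replicate gave 2 to 37 genes against the mean, 0 to 10 against D. simulans, 3 to 47 against D. sechellia, 0 to 5 the same way, 0 to 1 for the stages, each highest without the hybrid larval replicate 1, and 199 to 260 separated genes, most without D. melanogaster replicate 3. Other hybrid arrays moved counts by over 1.5 times: 5 against the mean without larval replicate 2, 3, 7, 8 and 4 against D. sechellia without early pupal replicate 2, early pupal replicate 3, late pupal replicate 2 and adult replicate 3, and 1 against D. simulans and 1 the same way without late pupal replicate 3. Against the mean of D. simulans and D. sechellia, over 52 named genes and their alternatives (1552 pairs), 1384 kept their side of the threshold, 166 passed it newly, 2 lost it (both CG32588) and 0 changed sign. Most pairs that kept their side were of genes without a call that stayed without one. Against D. sechellia, over the 13 called genes and their alternatives (386 pairs), 310 kept the call, 76 lost it and 0 changed sign, from 0 losses for CG17834 and Rpn12 to 15 for elfless. Leaving out a hybrid array, raising the fold limit or fitting fewer genes or stages could not change a difference, and so not its sign. Nor could leaving out 1 array turn the sign of a separated gene. The lack of sign changes in those settings is therefore no result. Causes were not tested.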
